A study of Homo sapiens with 7 samples.

Results

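CpG methylation was examined at 5 genes of the pluripotency network, NANOG, SOX2, LIN28A, ZFP42 and DPPA4, in human embryonic stem cells and along their differentiation to cardiac cells. Their CpGs were taken by position, as all CpGs in spans of 13 kb around NANOG, 11 kb around SOX2, 24 kb around LIN28A, 15 kb around ZFP42 and 17 kb around DPPA4. These spans held 299 of the 2587280 CpGs with 10 or more reads in any library, and 199 of the 1734462 CpGs with 10 or more reads in all 7 libraries. The assay was enhanced reduced representation bisulfite sequencing, which cuts genomic DNA at CpG-rich sites and reads unmethylated cytosine as T. The methylation level is the share of reads that carry C, after summing both strands of a CpG.

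The cells were HUES8, a widely used line of human embryonic stem cells. TKO cells lacked TET1, TET2 and TET3, the enzymes that oxidise methylated cytosine, and were profiled at day 0 (stem cells, SC), day 3 (cardiac mesoderm, CME) and day 8 (cardiac progenitors, CP). WT cells were profiled at the same stages and as beating cardiomyocytes (CM, day 14), a stage that TKO cells do not reach, per the series text. Differentiation began with the Wnt pathway activator CHIR99021, and IWP2, a Wnt antagonist, was given from day 3. After the CP stage the protocol has a phase in glucose-free medium with lactate, which among these libraries only WT CM could have passed. The source label of the WT CM library names the CME stage and its description gives another day, so its stage rests on its title and stage label. Each genotype and stage had 1 library, so no value below has a replicate check, and each test compares 2 libraries rather than 2 conditions. Whether the TKO cells were 1 clone is not given in the sources used here. Since the files hold neither expression nor sequence, neither the knockout nor the cell type of each stage was checked. In DNA from many cells, a level between 0 and 100% cannot tell a fully methylated share of cells from partial methylation in each.

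NANOG is a homeodomain transcription factor and SOX2 an HMG-box factor that binds DNA together with POU5F1; these factors maintain the pluripotent state and their expression falls as cells differentiate, although SOX2 returns in neural lineages. LIN28A is an RNA-binding protein that blocks the maturation of let-7 microRNAs. ZFP42, also called REX1, is a zinc finger protein, and DPPA4 is a nuclear chromatin protein that acts with its neighbour DPPA2. ZFP42 and DPPA4 are widely used as markers of pluripotent cells. DNA methylation at a promoter rich in CpGs is commonly linked to stable silencing, and CpG-poor promoters follow this rule less closely.

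The promoter sequences below are shown because they hold the CpGs that the assay did and did not read at each gene. They are the 250 bases before the start of each gene, 5′ to 3′ on the gene's strand, from the RefSeq promoter table of GRCh38.p14. NANOG lies at chr12:7789152-7789401 on the plus strand, SOX2 at chr3:181711675-181711924 on the plus strand, ZFP42 at chr4:187995521-187995770 on the plus strand and DPPA4 at chr3:109337547-109337796 on the minus strand. For SOX2 and ZFP42 the capitals mark the CpGs measured in all 7 libraries. For NANOG and DPPA4 they mark every CpG, none of which was measured.
NANOG: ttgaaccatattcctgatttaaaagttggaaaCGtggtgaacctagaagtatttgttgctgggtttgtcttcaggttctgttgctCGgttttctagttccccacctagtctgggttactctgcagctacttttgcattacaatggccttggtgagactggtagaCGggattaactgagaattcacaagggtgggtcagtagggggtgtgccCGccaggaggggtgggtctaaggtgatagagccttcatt
SOX2: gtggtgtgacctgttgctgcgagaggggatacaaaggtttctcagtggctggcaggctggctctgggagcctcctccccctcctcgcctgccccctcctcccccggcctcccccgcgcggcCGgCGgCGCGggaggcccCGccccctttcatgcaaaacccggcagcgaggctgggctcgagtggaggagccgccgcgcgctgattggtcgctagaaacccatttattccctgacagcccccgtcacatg
ZFP42: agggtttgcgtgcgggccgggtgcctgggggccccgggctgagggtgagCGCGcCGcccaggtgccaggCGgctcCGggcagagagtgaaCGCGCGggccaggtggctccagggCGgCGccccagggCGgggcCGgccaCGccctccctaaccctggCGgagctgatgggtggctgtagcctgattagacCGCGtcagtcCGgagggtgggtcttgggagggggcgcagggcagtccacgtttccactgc
DPPA4: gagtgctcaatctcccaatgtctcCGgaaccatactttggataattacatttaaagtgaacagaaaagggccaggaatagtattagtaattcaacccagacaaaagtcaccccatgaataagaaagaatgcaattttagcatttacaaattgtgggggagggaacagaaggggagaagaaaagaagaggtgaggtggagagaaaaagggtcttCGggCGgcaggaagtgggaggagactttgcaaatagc

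The NANOG sequence holds 4 CpGs and no CCGG, the palindromic site at which the method's enzyme cuts. DPPA4 holds 3 CpGs and 1 CCGG. SOX2 holds 20 CpGs and 3 CCGG, and 6 of its CpGs were read in at least 1 library and 5 in all 7. ZFP42 holds 23 CpGs and 5 CCGG, and all 23 were read in at least 1 library and 17 in all 7. Over the 35116 promoters of the table, the median was 11 CpGs in the same window and 58.5% held a CCGG. More CpGs than in NANOG were found in 65.7% of these promoters, and more than in DPPA4 in 70.7%, against 30.2% for SOX2 and 23.7% for ZFP42. The CpG-poor NANOG and DPPA4 promoters thus lay outside what was measured, while the CpG-rich SOX2 and ZFP42 promoters lay inside it. LIN28A is named only.

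With the promoter taken as 1000 bases before to 500 bases after the start, 3 of the 5 genes had a promoter CpG in any library, and the same number had one in all 7. ZFP42 had 46 promoter CpGs in any library and 30 in all 7. SOX2 had 23 in any and 17 in all 7, and LIN28A had 19 in any and 8 in all 7. Bodies, from the end of that window to the gene end, had CpGs in all 7 libraries at 4 of the 5 genes. These numbered 44 at SOX2, 42 at LIN28A, 17 at ZFP42 and 10 at DPPA4. NANOG had 0 CpGs in its promoter and 0 CpGs shared by all libraries anywhere in its span.

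The 7 libraries were not equally deep over these genes. At the 199 shared CpGs the median was 78 reads in TKO SC, 95 in CME and 71 in CP, against 50 in WT SC, 63 in CME, 76 in CP and 72 in CM. The number of the 299 CpGs with 10 or more reads ran from 217 in TKO CP to 279 in WT CME. On the mitochondrial genome, taken as unmethylated, C reads made up 0.141% in TKO SC, 0.387% in CME and 0.139% in CP. They made up 1.46% in WT SC, 1.44% in CME, 0.219% in CP and 0.216% in CM. Levels of that size in WT SC and WT CME cannot be told apart from unconverted cytosine. The descriptions of those same libraries carry the ending BS, which the labels do not explain and which the other 5 descriptions lack.

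Because CpGs of very different level stand near each other at these genes, values are given for runs, sets of shared CpGs with gaps of at most 500 bases. The runs were defined after seeing the data. A read that spans several CpGs was counted once per CpG, and PCR copies were not removed here, so all intervals and p-values cover counting error only and are too narrow.

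**Figure D1:**
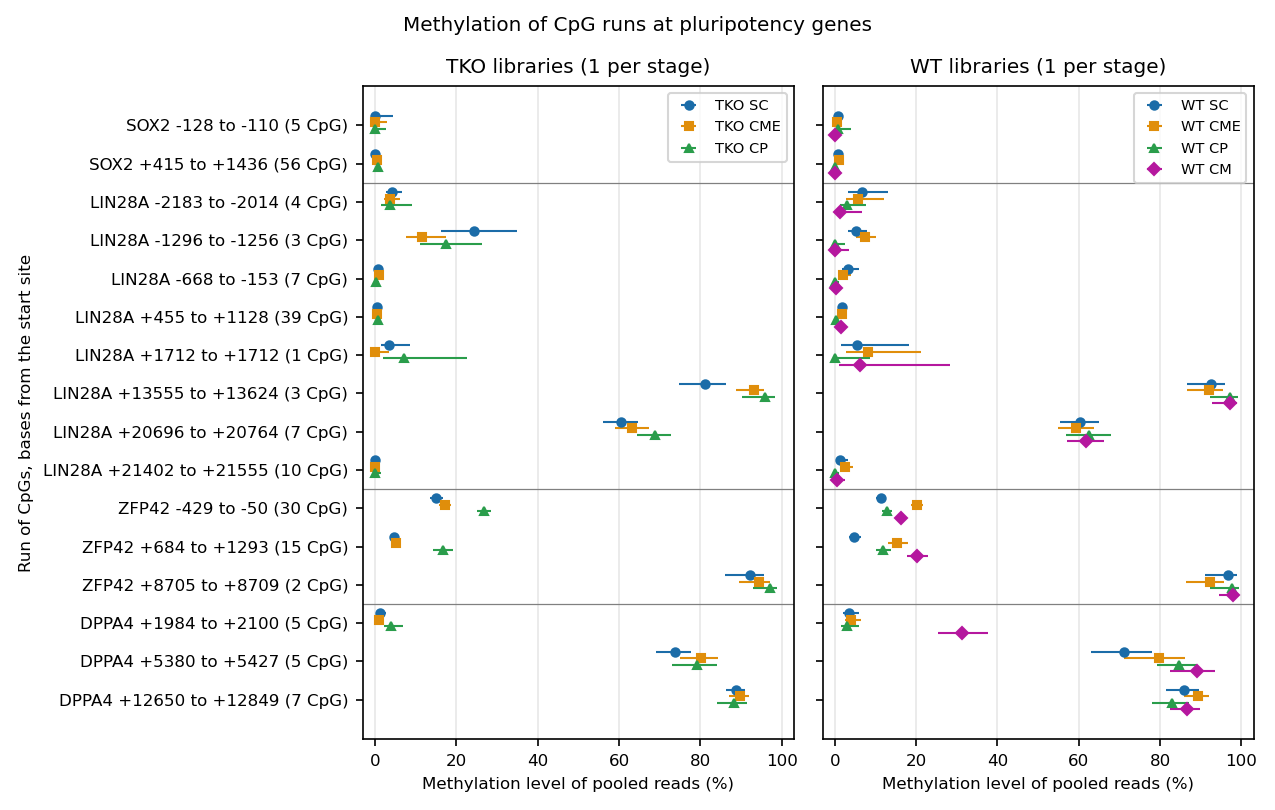
Methylation level (%) of the pooled reads in each run of CpGs, named by its distance in bases from the start site; TKO libraries on the left, WT libraries on the right, with 1 point per library and 95% Wilson intervals as bars. The SOX2 runs lie below 1% in all libraries, the ZFP42 run before the start is highest in TKO CP and the one after it in WT CM, and the DPPA4 run about 2 kb after the start stands at 31.2% in WT CM alone.

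NANOG could be followed at only 6 CpGs, none of them in its promoter and none read in all libraries. A pair of CpGs lay upstream. The one 1398 bases before the start had a level of 10% (10 reads) in TKO CP, against 11.6% (43 reads) in WT SC and 20% (50 reads) in WT CME. The one 1365 bases before it had 0 of 10 reads methylated in TKO CME, which allows a level of up to 30%, against 10.6% in WT SC, 11.4% in CME and 20% (10 reads) in CP. Both were thus low wherever they were read, with intervals that overlap.

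The other NANOG CpGs lay in the gene body and were mostly methylated. At 4789 bases after the start the level was 100% in TKO SC, TKO CME, WT SC, WT CME and WT CP, on 18 to 27 reads. At 4822 bases it was 74.2% in TKO SC and 81.0% in TKO CME, against 85.0% in WT SC, 90.5% in CME and 94.4% in CP. At 4838 bases it was 78.1% in TKO SC and 81.8% in TKO CME, against 90.5% in WT SC, 81.8% in CME and 94.7% in CP. The lowest value at each of these last sites was in TKO SC, but with 18 to 32 reads each the intervals overlap; at 4822 bases they ran from 56.8% to 86.3% in TKO SC and from 64.0% to 94.8% in WT SC. A further CpG 4644 bases after the start was read in TKO SC only, at 100% of 10 reads. WT CM had none of the 6 CpGs and TKO CP had only 1, upstream. In its body, NANOG thus gave a comparison with stem cells for WT progenitors, but none for TKO progenitors or WT cardiomyocytes.

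SOX2 was almost unmethylated at the promoter and body CpGs read in all 7 libraries. Its promoter stood at 0 of 743 reads in TKO SC, which allows up to 0.404%, and at 0.364% in CME and 0.125% in CP. In WT it stood at 0.517% in SC, 0.655% in CME, 0.131% in CP and 0.114% in CM. All 7 values were below 1%. The 5 capital CpGs of the sequence above, 128 to 110 bases before the start, had 0 methylated reads in TKO SC, TKO CME and TKO CP, on 84, 124 and 135 reads. They had 0.676% in WT SC, 0.444% in CME, 0.725% in CP and 0 of 245 reads in CM.

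The SOX2 body was as low. It is covered from 415 to 1436 bases after the start by 56 shared CpGs, some of which fall in the promoter window. Their pooled level was 0.0406% in TKO SC, 0.485% in CME and 0.615% in CP, against 0.866% in WT SC, 0.981% in CME, 0.126% in CP and 0.0739% in CM. No single CpG of the run was above 10% in any library. The WT SC and WT CME values are smaller than the share of unconverted cytosine in those libraries given above. After correction for it, the difference of WT CM minus WT SC over the SOX2 body was 0 points, against -1.02 points before. Over promoter and body alike, no SOX2 level exceeded 1.12% in any library, cardiac progenitors of both genotypes and WT cardiomyocytes included. Of the 8 CpGs from 2053 to 1194 bases before the start, each read in 1 to 5 libraries, none exceeded 15.6%. Past the gene, 3 CpGs from 3388 to 3861 bases after the start, each read in 3 to 6 libraries, reached up to 21.4%.

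At LIN28A the CpGs around the start were also nearly unmethylated, while the few CpGs read deep in its gene body were mostly methylated. The run from 668 to 153 bases before the start had 0.688% in TKO SC, 0.980% in CME and 0.190% in CP, against 3.27% in WT SC, 2.10% in CME, 0 of 414 reads in CP and 0.274% in CM. The 39 CpGs from 455 to 1128 bases after the start had 0.399% in TKO SC, 0.370% in CME and 0.832% in CP. In WT they had 1.81% in SC, 1.74% in CME, 0.195% in CP and 1.51% in CM. In both runs WT SC and WT CME exceeded TKO at the same stage by a few points at most. The distances at LIN28A rest on a start site placed by hand, which differed by 39 bases from the one found through its neighbours.

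Deep in the LIN28A body, 3 CpGs from 13555 to 13624 bases after the start had 81.1% (95% Wilson interval 74.7% to 86.2%) in TKO SC, 93.1% in CME and 96.0% in CP. They had 92.6% (86.6% to 96.1%) in WT SC, 92.1% in CME, 97.3% in CP and 97.1% in CM. TKO SC was the lowest of the 7 libraries, below WT SC by 11.5 points (interval 3.57 to 18.8 points), and no CpG of the run passed the single-CpG test. Another 3 CpGs, 13262 to 13278 bases after the start and read in 4 libraries, lay between 75.0% and 100%. The unmethylated start and the methylated CpGs deep in the body of LIN28A were thus present in each library where they were read. Over the whole body window, its 42 shared CpGs pooled to between 3.36% in TKO CP and 5.87% in WT CM. Most of these CpGs lie in the low run near the start.

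A short stretch before the LIN28A promoter had the widest gap between TKO and WT of the runs at this gene. The 3 CpGs from 1296 to 1256 bases before the start had 24.4% (16.2% to 34.9%) in TKO SC, 11.6% (7.54% to 17.4%) in CME and 17.4% (10.98% to 26.4%) in CP. They had 5.14% in WT SC and 7.32% in WT CME, 0 of 153 reads in WT CP, which allows up to 1.961%, and 0 of 106 reads in WT CM, which allows up to 2.83%. TKO lay above WT by 19.2 points in stem cells, by 4.27 points at CME and by 17.4 points in progenitors, and the interval at CME, -0.638 to 10.4 points, includes 0. At the middle CpG, 1270 bases before the start, the level was 21.7% of 46 reads in TKO CP, against 0 of 78 reads in WT CP. Its adjusted p was 2.46e-04 by Fisher's exact test with Benjamini-Hochberg adjustment over all 1734462 CpGs, but the difference of 21.7 points missed the 25 points required for a call.

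Past the 3′ end of LIN28A, the 7 CpGs from 20696 to 20764 bases after the start were partly methylated in all libraries. Their level was 60.5% in TKO SC, 63.2% in CME and 68.8% in CP, against 60.3% in WT SC, 59.4% in CME, 62.6% in CP and 61.7% in CM. Further on, 10 CpGs were almost unmethylated, at no more than 2.40% in any library. This second run spans the start of the next gene, DHDDS, from 141 bases before to 12 bases after it. It belongs to LIN28A by span only.

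Of the 4 genes with CpGs read in all libraries, ZFP42 alone had CpGs called different between TKO and WT. Its promoter was partly methylated in all libraries, with 15.0% (13.4% to 16.7%) in TKO SC, 17.1% (15.8% to 18.6%) in CME and 26.8% (25.02% to 28.6%) in CP. In WT it had 11.3% (10.1% to 12.6%) in SC, 20.2% (18.8% to 21.8%) in CME, 12.8% (11.5% to 14.1%) in CP and 16.2% (14.9% to 17.5%) in CM. TKO CP was the highest of the 7 libraries, 14.0 points above WT CP (Newcombe interval 11.8 to 16.2 points), and 27 of the 30 promoter CpGs had a higher level in TKO CP. At CME the order was the other way, with TKO below WT.

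The methylated part of the ZFP42 promoter lay away from the start. Split at 250 bases before the start, a choice made after seeing the data, the 13 CpGs from 429 to 299 bases before it had 27.8% in TKO SC, 32.2% in CME and 50.1% in CP. The same CpGs had 21.9% in WT SC, 34.3% in CME, 22.6% in CP and 29.9% in CM. The 17 CpGs from 201 to 50 bases before the start, those in capitals in the sequence above, had 3.18% in TKO SC, 4.46% in CME and 10.7% in CP. They had 4.25% in WT SC, 8.27% in CME, 6.13% in CP and 7.28% in CM. TKO CP was the highest library in both sets, and at 10 of the 13 far CpGs and 8 of the 17 near ones it alone had the highest level of the 7.

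**Figure D2:**
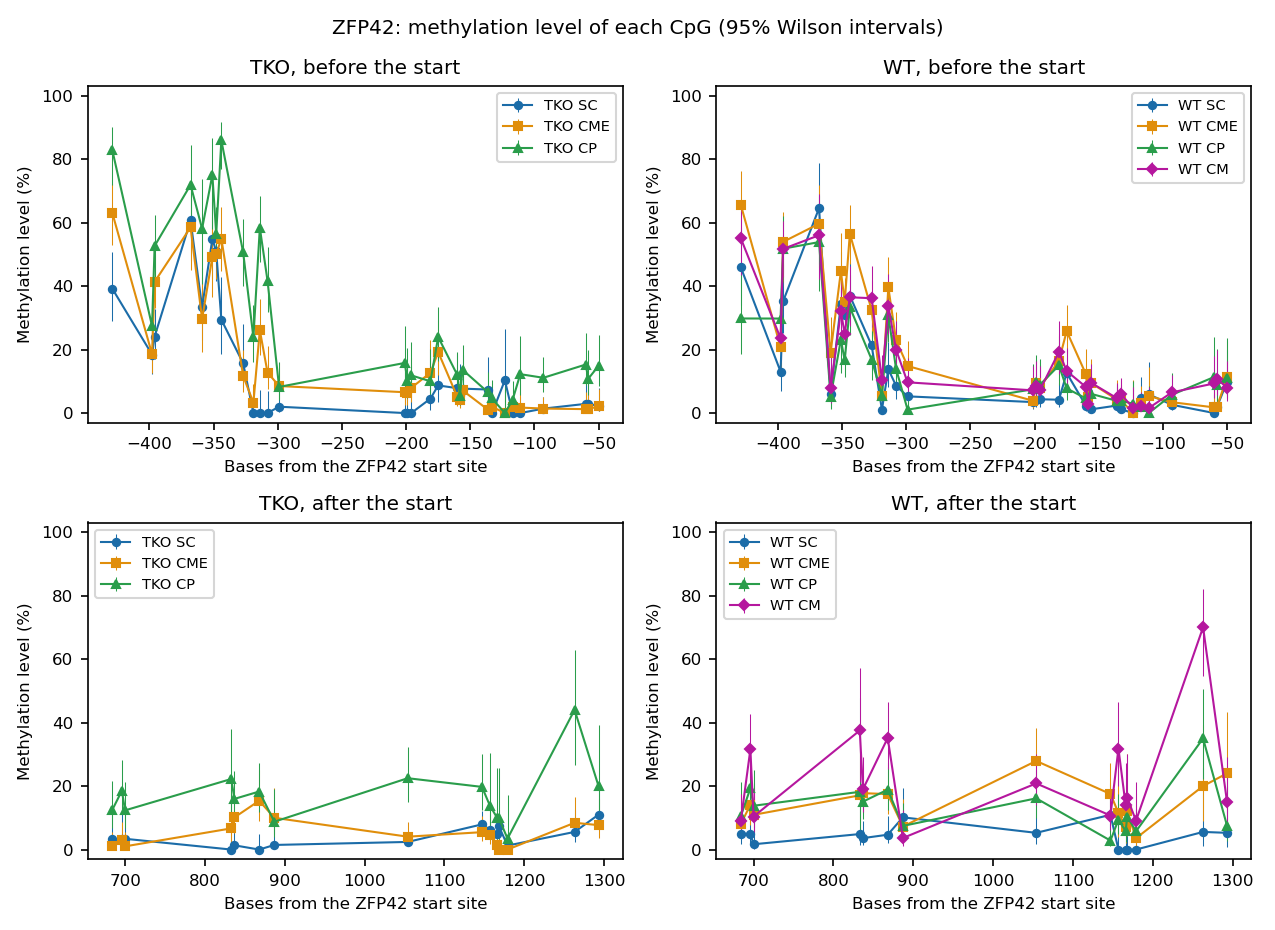
Methylation level (%) of each ZFP42 CpG read in all 7 libraries against its distance in bases from the start site; TKO on the left and WT on the right, upper panels before the start and lower panels after it, points per library with 95% Wilson intervals. In TKO CP most CpGs between 429 and 308 bases before the start lie above the other libraries, up to 85.9%, while after the start WT CM is highest at 9 of 15 CpGs.

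Single CpGs were tested over all 1734462 shared CpGs and called where the difference was 25 points or more with an adjusted p under 0.01. In TKO CP against WT CP, 8 of the 199 member CpGs were called higher and 0 lower; over the genome 10.3% were called higher and 0.12% lower. The share among the members, 8 of 199, was thus below that of the genome. All 8 were ZFP42 promoter CpGs of the far set. The members' median difference was 0 points, as was that over all CpGs.

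The largest of these differences was at the CpG 429 bases before the start, at position 188916496 of chromosome 4 (hg19). Its level was 39.2% in TKO SC, 63.0% in CME and 82.8% (53 of 64 reads) in CP, against 45.9% in WT SC, 65.6% in CME, 29.8% (14 of 47 reads) in CP and 55.1% in CM. TKO CP was higher than WT CP by 53.0 points (adjusted p = 2.41e-07, Fisher's exact test, Benjamini-Hochberg). The genotypes had similar values at CME, while TKO CP was the highest and WT CP the lowest of the 7 libraries.

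At 344 bases before the start the level was 29.4% in TKO SC, 54.9% in CME and 85.9% in CP. In WT it was 37.0% in SC, 56.5% in CME, 33.3% in CP and 36.5% in CM. The difference at CP was 52.5 points (adjusted p = 1.10e-11, Fisher's exact test), and both strands showed it, with 83.3% and 90.3% in TKO CP against 39.3% and 21.9% in WT CP. At 348 bases, the level was 56.4% of 117 reads in TKO CP and 16.7% of 132 reads in WT CP, a difference of 39.7 points (adjusted p = 7.16e-10, Fisher's exact test).

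At 359 bases before the start, TKO was above WT at all 3 stages. The level was 33.3% in TKO SC, 29.6% in CME and 58.1% in CP, against 5.88% in WT SC, 19.0% in CME, 5.13% in CP and 7.84% in CM. Only the difference at CP, 52.9 points, was called (adjusted p = 1.59e-05, Fisher's exact test), and it rests on reads of 1 strand, as do the differences at 429 and 351 bases. The CpG at 314 bases behaved otherwise, with 0 of 49 reads in TKO SC, which allows up to 6.12%, and with 26.1% in CME and 58.3% in CP. In WT it had 13.8% in SC, 39.6% in CME, 30.8% in CP and 33.7% in CM. TKO was thus the lower genotype there at SC and CME and the higher at CP, where the difference was 27.6 points (adjusted p = 0.00229, Fisher's exact test).

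The remaining called CpGs, at 351, 327 and 308 bases before the start, were higher in TKO CP by 51.9, 33.7 and 27.7 points. Not every CpG of the far set did so. At 396 bases the levels were 52.6% in TKO CP and 51.8% in WT CP, and at 299 bases 8.24% in TKO CP and 1.08% in WT CP.

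The 1 kb tile that holds the whole ZFP42 promoter run differed by 14.0 points between TKO CP and WT CP (adjusted p = 1.47e-34, Fisher's exact test over 85087 tiles), less than the 25 points required for a call. The same tile differed by 3.65 points at SC and by -3.07 points at CME, TKO minus WT, with adjusted p = 0.00131 and 0.00949 by Fisher's exact test. At SC the mean over the 30 CpGs differed by 0.205 points only, and 19 of them were lower and 11 higher in TKO SC, so the pooled difference depends on how the reads fall on the CpGs. The change of the genotype difference in this tile between stages also stayed under 25 points. Among tiles under 20% in WT SC, 13.1% over the genome exceeded WT CP by 25 points or more in TKO CP.

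Within TKO cells, ZFP42 also held the CpGs that rose between stages. From CME to CP, 5 of the 199 member CpGs were called higher (genome 0.995%), and from SC to CP 7 were called higher (genome 1.38%); all were ZFP42 CpGs. At 314 bases before the start TKO CP exceeded TKO SC by 58.3 points (adjusted p = 2.57e-11, Fisher's exact test). The only other call, TKO CME over TKO SC, was at this same CpG, by 26.1 points (adjusted p = 0.00344, Fisher's exact test, genome 0.141%). None of the 199 was called lower between TKO stages, where the genome had 0.0952% lower for CME against SC, 0.123% for CP against CME and 0.186% for CP against SC.

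In WT, 0 of the 199 CpGs were called from SC to CP. For CME against SC, 0.0134% of all CpGs were called higher and 0.00179% lower. For CP against CME these shares were 0.0795% and 2.15%, and for CP against SC 0.116% and 1.82%.

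Downstream of its start, ZFP42 had its highest level of TKO in CP and its highest level of WT in CM. The 15 CpGs from 684 to 1293 bases after the start had 4.60% (3.71% to 5.69%) in TKO SC, 5.13% (4.05% to 6.49%) in CME and 16.6% (14.3% to 19.3%) in CP. In WT they had 4.78% (3.49% to 6.52%) in SC, 15.4% (13.1% to 17.97%) in CME, 11.9% (10.1% to 13.9%) in CP and 20.3% (17.9% to 23.04%) in CM. In WT, CP was 3.51 points below CME (interval -6.66 to -0.445 points), and in TKO, CME was 0.536 points above SC (interval -1.01 to 2.16 points, which includes 0). The WT interval covers counting error only. Unconverted cytosine was more frequent in the CME library of WT (1.44%) than in its CP library (0.219%). How much of the 3.51 points this makes up was not tested. At SC the genotypes lay within each other's intervals. At CME, TKO was 10.2 points below WT, with a lower level at 14 of the 15 CpGs, and at CP it was 4.75 points above.

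In WT CM against WT SC, 3 CpGs of this run were called higher. At 1263 bases after the start the level was 5.56% in TKO SC, 8.43% in CME and 44.0% in CP, against 5.56% (1 of 18 reads) in WT SC, 20% in CME, 35.0% in CP and 70.0% (28 of 40 reads) in CM. WT CM exceeded WT SC by 64.4 points (adjusted p = 5.07e-04, Fisher's exact test), and TKO CP exceeded TKO SC by 38.4 points (adjusted p = 8.63e-04). At 868 bases the level was 0 of 74 reads in TKO SC, 15.4% in CME and 18.3% in CP, against 4.67% in WT SC, 17.5% in CME, 18.9% in CP and 35.1% in CM. In WT CM the strands differed at that CpG, with 71.4% of 21 plus-strand reads and 20.8% of 53 minus-strand reads, against 4.76% and 4.62% in WT SC. At 696 bases WT CM exceeded WT SC by 26.7 points. The calls at 1263 and 696 bases rest on minus-strand reads only. No CpG of the run was called between genotypes; the largest difference at CP was 16.9 points, 1147 bases after the start, with 19.7% in TKO CP and 2.83% in WT CP.

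A pair of CpGs near the end of the ZFP42 gene, 8705 and 8709 bases after the start, stood between 92.1% and 98.0% in all libraries. Over the whole body window their reads mix with those of the low run, which gives 28.2% in TKO CP and 18.3% in WT CP. With each CpG weighted equally, the TKO CP minus WT CP difference of the body was 3.23 points in place of 9.87 points.

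DPPA4 showed its main difference in WT cardiomyocytes. The 5 CpGs from 1984 to 2100 bases after the start had 1.15% (0.494% to 2.67%) in TKO SC, 0.909% (0.389% to 2.11%) in CME and 4.01% (2.31% to 6.88%) in CP. In WT they had 3.395% (1.91% to 5.98%) in SC, 4.03% (2.46% to 6.55%) in CME, 2.99% (1.46% to 6.04%) in CP and 31.2% (25.3% to 37.6%) in CM. Thus 6 libraries lay under 5% and WT CM stood apart from them. The run makes up the whole of the 1 kb tile at 109054001 to 109055000 of chromosome 3 (hg19). WT CM was called higher there than WT CP by 28.2 points (adjusted p = 1.19e-14, Fisher's exact test) and than WT SC by 27.8 points (adjusted p = 4.84e-18). With the 5 CpGs weighted equally the differences were 21.0 and 19.8 points, under the 25 points required, and neither was called.

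These were the only called tiles among the 13 member tiles in any of the 11 pairs of libraries. Over the genome, 0.0306% of tiles were called higher in WT CM than in WT CP and 0.126% than in WT SC. The members' median tile difference was 1.44 points for WT CM minus WT CP and -0.0392 points for WT CM minus WT SC, beside 0.0939 and -1.23 points over all tiles. These medians were not corrected for unconverted cytosine, which made up 1.46% in the WT stem cell library and 0.216% in the cardiomyocyte one. The genome had 0.0223% of tiles called lower in WT CM against WT CP and 2.81% against WT SC, where the members had 0.

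No member tile was called in the other pairs of stages. In WT the genome had 0.0282% of tiles higher and 0.0118% lower for CME against SC, 0.0294% and 3.38% for CP against CME, and 0.0705% and 3.16% for CP against SC. In TKO it had 0.0223% higher and 0.0188% lower for CME against SC, 0.771% and 0.0599% for CP against CME, and 1.08% and 0.0693% for CP against SC. By adjusted p alone, 6 of the 13 member tiles were lower for CP against CME in WT (genome 45.0%), and 5 were higher for the same stages in TKO (genome 23.6%). Both shares of the members, 6 and 5 of 13, stood beside a genome that moved the same way, by a median of -1.71 points in WT and 1.497 points in TKO. For WT, unconverted cytosine fell between the same libraries, from 1.44% (CME) to 0.219% (CP). Its part in the WT median and in the WT tiles lower by adjusted p alone was not tested.

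**Figure D3:**
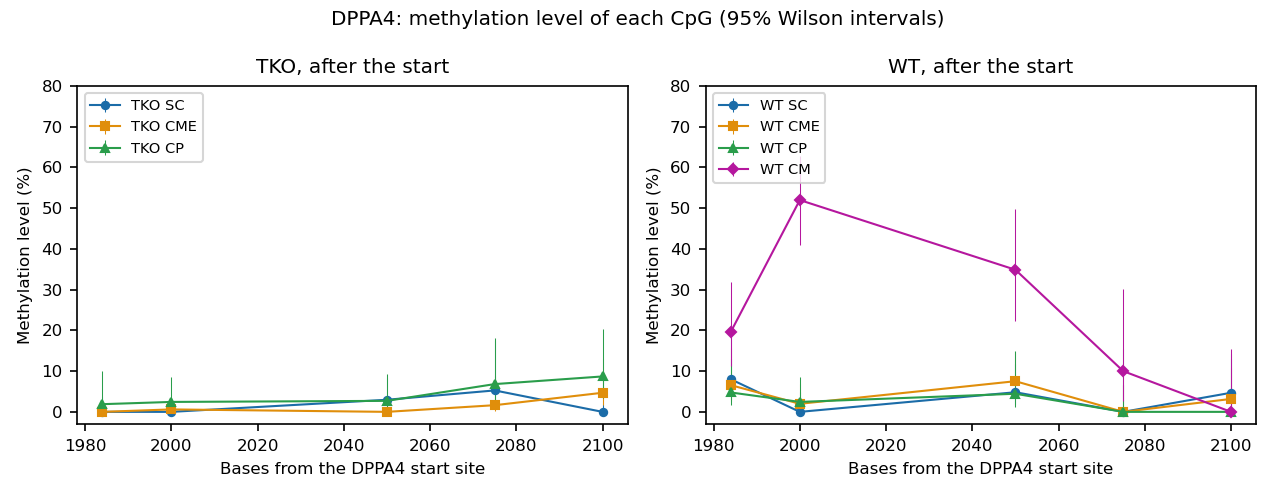
Methylation level (%) of the 5 DPPA4 CpGs about 2 kb after the start site against their distance in bases; TKO on the left and WT on the right, points per library with 95% Wilson intervals. In WT CM the CpGs at 2000 and 2050 bases stand at 52.0% and 34.9%, while no other library exceeds 8.70% at any of the 5.

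Within the DPPA4 run the difference was uneven. At 2000 bases after the start the level was 0 of 145 reads in TKO SC, which allows up to 2.07%, 0.602% in CME and 2.44% in CP. In WT it was 0 of 73 reads in SC, which allows up to 4.11%, 1.98% in CME, 2.44% in CP and 52.0% (39 of 75 reads) in CM. WT CM exceeded WT CP by 49.6 points (adjusted p = 9.26e-10, Fisher's exact test) and WT SC by 52.0 points (adjusted p = 2.40e-12). In WT CM both strands were raised, with 44.4% of 18 plus-strand reads and 54.4% of 57 minus-strand reads.

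At 2050 bases the level was 2.97% in TKO SC, 0 of 108 reads in CME and 2.70% in CP, against 4.82% in WT SC, 7.53% in CME, 4.44% in CP and 34.9% (15 of 43 reads) in CM. WT CM exceeded WT SC by 30.1 points (adjusted p = 0.00122, Fisher's exact test). At 1984 bases WT CM had 19.6% of 56 reads and at 2075 bases 10% of 20 reads, neither called. At 2100 bases it had 0 of 21 reads, which allows up to 14.3%. The level thus peaked at the CpG 2000 bases after the start and fell off on both sides.

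Among single CpGs, WT CM minus WT CP gave 1 call among the 199 (genome 0.0446%), this DPPA4 site at 2000 bases. WT CM minus WT SC gave 5 calls (genome 0.196%), 2 at DPPA4 and 3 in the ZFP42 run described above. All were higher in WT CM and 0 were lower, while 1.63% of all CpGs were called lower in that comparison and 0.0126% in WT CM against WT CP. TKO cells were not profiled as cardiomyocytes, so their level at DPPA4 at that stage was not measured. Stage and the phase in lactate medium cannot be told apart in WT CM. Nearer the DPPA4 start, 7 CpGs from 1495 to 1670 bases after it were read in 4 or 5 libraries, never in WT CM or TKO CP, and did not exceed 9.52%. Another 3 CpGs, 586 to 603 bases after the start, were read in WT CME only, each with 0 of 10 reads methylated, which allows up to 30%.

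Further into the DPPA4 gene the CpGs were methylated. The 5 CpGs from 5380 to 5427 bases after the start had 73.7% (69.2% to 77.8%) in TKO SC, 80.1% in CME and 79.1% in CP, against 71.0% (63.0% to 77.9%) in WT SC, 79.6% in CME, 84.7% in CP and 89.2% (82.3% to 93.6%) in CM. The WT values run upward in stage order, with intervals that overlap between neighbouring stages. One CpG of this run, at 5410 bases, was much lower than the others. It had 35.8% in TKO SC, 49.1% in CME and 24.4% (41 reads) in CP, against 27.6% in WT SC, 33.3% in CME, 48.8% (43 reads) in CP and 66.7% in CM. Its TKO CP minus WT CP difference of -24.4 points did not pass the test (adjusted p = 0.134, Fisher's exact test).

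Past the DPPA4 gene, 7 CpGs 12650 to 12849 bases after the start had 88.8% in TKO SC, 89.8% in CME and 88.2% in CP, against 85.9% in WT SC, 89.3% in CME, 83.0% in CP and 86.6% in CM. Upstream, 4 CpGs from 3334 to 3302 bases before the start, read in 5 libraries, lay between 70.0% and 100%. The low stretch of DPPA4 thus lay between methylated CpGs in the libraries where both sides were read. TKO CP and WT CP had no upstream CpG, and the promoter in between was measured in no library. In WT CM the 5 CpGs nearest the start that were shared by all libraries stood at 31.2%.

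The 13 member tiles came from SOX2, LIN28A, ZFP42 and DPPA4, and NANOG had none. Of these tiles, 0 were called in TKO against WT at any stage. The genome-wide shares called higher in TKO were 6.26% in stem cells, 6.02% at CME and 12.0% in progenitors, and those called lower 0.119%, 0.0846% and 0.0458% in the same order. By adjusted p alone, whatever the size, 1 member tile was higher (genome 17.1%) and 5 were lower (genome 23.6%) in TKO SC. In TKO CME 0 were higher (genome 16.5%) and 7 lower (genome 27.7%), and in TKO CP 5 were higher (genome 39.3%) and 0 lower (genome 3.59%). At single CpGs, 0 of 199 were called at SC, where 5.77% were called higher and 0.261% lower over the genome. At CME 0 were called as well, beside 5.9% higher and 0.309% lower; by adjusted p alone 4 CpGs were lower in TKO CME (genome 1.02%). Of the 13 tiles, 6 (46.2%) were under 5% in all 7 libraries, a class that made up 21.4% of all tiles. The median member tile differed by -1.27 points in stem cells, -1.62 points at CME and 1.76 points in progenitors, beside -0.929, -1.04 and 1.30 points over all tiles. At SC and CME, differences of this size cannot be told apart from unconverted cytosine. Its share was 1.46% in WT SC and 1.44% in WT CME, against 0.141% in TKO SC and 0.387% in TKO CME. Its part in the tiles lower in TKO by adjusted p alone was not tested.

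The test of whether the genotype difference itself changed between stages called 1 of the 13 tiles, at LIN28A (26758001 to 26759000 of chromosome 1, hg19). The genotype difference was 27.2 points larger at CP than at SC (z test on the reads, called at the same thresholds; genome 5.67% larger and 0.108% smaller). This tile joins 4 CpGs of the partly methylated run past LIN28A with the 10 unmethylated CpGs at the DHDDS start. Its pooled level was 8.37% in TKO SC, 11.5% in CME and 31.9% in CP, against 24.3% in WT SC, 24.6% in CME, 20.6% in CP and 36.0% in CM.

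The share of the tile's reads that fell on the unmethylated CpGs differed between libraries. It was 83.6% in TKO SC, 80.1% in CME and 50.7% in CP, against 62.4% in WT SC, 58.7% in CME, 68.3% in CP and 44.6% in CM. With each CpG weighted equally, the tile's level lay between 14.6% in TKO SC and 18.8% in WT CM, and the change of the difference was 3.90 points, which was not called. The 4 partly methylated CpGs alone had 51.1% in TKO SC and 64.6% in TKO CP, against 62.6% in WT SC and 65.1% in WT CP. No member tile was called for the change between CME and CP, where the genome had 5.67% larger and 0.0588% smaller, or between SC and CME, where it had 0.0259% larger and 0.047% smaller.

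**Figure D4:**
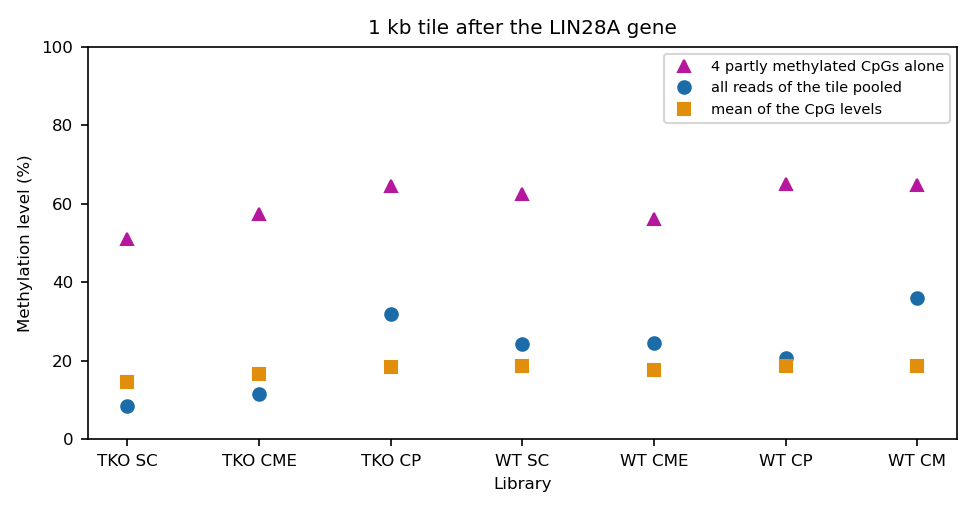
Methylation level (%) of the 1 kb tile past the LIN28A gene in each library, by 3 measures: its 4 partly methylated CpGs alone, all reads pooled, and the mean of the 14 CpG levels. The pooled level ranges from 8.37% in TKO SC to 36.0% in WT CM, whereas the mean of the CpG levels stays between 14.6% and 18.8%.

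Other genes linked to pluripotency gave the setting for these values. Of a list of 14, 7 had a promoter that could be placed on the build of the files through its CpG spacing: DPPA2, UTF1, LIN28B, L1TD1, KLF4, TFCP2L1 and TRIM71. SALL4 and TDGF1 are named only, and the promoters of DPPA3, GDF3, ESRRB and DNMT3B could not be placed. UTF1, a chromatin-associated protein of pluripotent cells, had a promoter level of 6.53% in TKO SC, 7.07% in CME and 14.3% in CP, against 2.17% in WT SC, 2.56% in CME, 1.71% in CP and 1.4996% in CM. All 3 TKO libraries lay above all 4 WT libraries there. Of the 3 tiles that overlap its promoter, 1 was called higher in TKO at SC (genome 6.26%), 1 at CME (genome 6.02%) and 2 at CP (genome 12.0%).

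DPPA2, the neighbour and partner of DPPA4, was highly methylated at its promoter in all libraries, with 68.9% in TKO SC, 71.6% in CME and 81.9% in CP, against 75.7% in WT SC, 82.3% in CME, 73.6% in CP and 73.9% in CM. KLF4, a zinc finger transcription factor, had a promoter level of no more than 1.03% in any library, yet 1 of the 3 tiles that overlap its promoter was called higher in TKO at each stage. The promoters of LIN28B, a relative of LIN28A, of TFCP2L1, a transcription factor, and of TRIM71, an RNA-binding let-7 target, were at no more than 1.67%. L1TD1, an RNA-binding protein of pluripotent cells, lay between 5.61% in WT SC and 11.4% in WT CM. No tile overlapping these promoters was called lower in TKO, and none was called between stages of 1 genotype. Apart from UTF1 and KLF4, no placed gene had a tile called higher in TKO. With 1 to 3 tiles per promoter, these calls were not tested against the genome shares.

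Among the promoters and bodies of the 5 genes, the DPPA4 body alone ranged over 25 points or more across the libraries in pooled reads, from 21.0% in WT CME to 51.9% in WT CM. With CpGs weighted equally it ranged over 18.7 points, from 37.6% in WT SC to 56.3% in WT CM. The 3 tiles elsewhere in the genome whose levels were most like it over the 7 libraries lay on chromosome 11 at 74960001 to 74961000, chromosome 19 at 36235001 to 36236000 and chromosome X at 39681001 to 39682000 (hg19). Their mean absolute differences from it were 3.59, 4.20 and 4.26 points. The body window mixes the DPPA4 runs of low and high level described above, so this likeness refers to the mixture.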

How the data were processed

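Methylation was measured in 7 libraries, 1 per genotype and stage, grouped by the sample titles. Alignment and methylation calling were done at a core facility, per the labels' protocols, on build hg19, per the submitters' processing notes. Aligner and caller: not given in the sources used here. Per the file headers, the deposited tables give for each cytosine its strand, its coverage, a raw read count, and the percent of reads read as C and as T. The lowest deposited coverage was 10, and coverage times percent gave whole reads in 100% of lines, within the rounding of the percentages. Coverage summed over all lines ran from 120742115 in WT SC to 213058905 in TKO CME, with a read counted once for each cytosine it covers.

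Strands were summed per CpG. Since each line covers 1 strand, a strand with fewer than 10 reads was not counted. A CpG can thus rest on both strands in some libraries and on 1 in others, as at 429 bases before the ZFP42 start. CpGs with 10 or more reads in all 7 libraries were used, singly and in 1 kb tiles with 5 or more such CpGs. Fisher's exact test (two-sided) on methylated and unmethylated reads was run for 11 pairs of libraries, with Benjamini-Hochberg adjustment over all 85087 tiles or all 1734462 CpGs within each pair. A call needed an adjusted p below 0.01 and 25 points. The z test compared genotype differences between 3 pairs of stages. Intervals are 95% Wilson intervals for levels and 95% Newcombe intervals for differences. For a level of 0, the limit given is 3 reads over the total. The tile test was tested on simulated data made from the reads of TKO CP and WT CP (85087 tiles). It found 100 of 100 tiles with a change of 40 points, 97 of 100 with one of 30 points, and none falsely among 84887. The simulated reads were drawn independently within each tile. Left out were reads that span several CpGs, PCR copies, and reads that fall unevenly on the CpGs of a tile. The check therefore gives no rate of false calls for the real reads.

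No annotation of hg19 was used here, so exons, introns and UTRs are not given. Start sites were placed by hand and compared with the CpG spacing of RefSeq promoter sequences. ZFP42 matched at 23 CpGs with 0 bases of shift and SOX2 at 6 CpGs with 1. NANOG, LIN28A and DPPA4 were compared through placed neighbours and differed by 6, 39 and 26 bases. The 5 genes and the list of 14 others were chosen with earlier results of these data known. 1 gene of that list is not reported here. By rule, all 5 genes, every called tile, and in each promoter and body the CpG with the largest difference for TKO CP minus WT CP and WT CM minus WT SC were to be described. At SOX2 and LIN28A these CpGs were not described singly, and none of them was called. The largest such difference, WT CM minus WT SC 878 bases after the LIN28A start, was 20.0 points on 10 reads in WT CM. Runs, the division of the ZFP42 promoter and the z test under the tile alternatives were added after seeing the data. Alternatives tried were a coverage of 20 reads, each strand alone, CpGs weighted equally, a correction for unconverted cytosine, other promoter windows, other tile sizes and other thresholds. Calculations used scipy 1.17.1, numba 0.67.0, pandas 2.3.3 and numpy 2.4.6 under Python 3.11.15, with figures by matplotlib 3.10.9.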

Additional observations from a re-analysis of the deposited data

Results flagged for a closer look

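The LIN28A tile at 26758001 to 26759000 of chromosome 1 (hg19) was picked out because the test of the difference itself found the genotype difference to change between stages, by 27.2 points from SC to CP (z test on the reads). TKO CP lay 11.2 points above WT CP, and TKO SC lay 15.9 points below WT SC. With plus-strand reads only the change was 2.13 points, and with each CpG weighted equally it was 3.90 points, and neither was called. The share of the tile's reads on its 10 unmethylated CpGs moved with the pooled level, from 83.6% in TKO SC to 50.7% in TKO CP, beside 62.4% in WT SC and 68.3% in WT CP.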

How the results depend on the processing

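Over 14 differences in level at promoters and bodies, 85 of 100 alternatives moved the value by less than its counting interval. TKO CP minus WT CP became -0.725 points at the SOX2 promoter with 250 bases on each side, 2.69 points at the LIN28A promoter with 2000 bases before the start, 4.58 points at the ZFP42 promoter with 250 bases on each side, and 18.7 points there on the plus strand and 11.8 on the minus strand. It became 0.933 points at the LIN28A body on the plus strand and 0.770 with CpGs weighted equally (against -0.211 over all shared reads), 3.23 points at the ZFP42 body with CpGs weighted equally, and 0.524 points at the DPPA4 body on the minus strand (against -6.88). WT CM minus WT SC became 0 points at the SOX2 body and 1.56 points at the LIN28A body after correction for unconverted cytosine, -2.57 points at the LIN28A body over all CpGs of each library (against 0.366), 7.15 points at the ZFP42 promoter on the plus and 2.94 on the minus strand, and 18.7 points at the DPPA4 body with CpGs weighted equally. The causes were not tested, except that windows and weights change which CpGs count.

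With 10 points in place of 25, TKO minus WT had 1 member tile called lower at SC (2.94% of all tiles), 2 lower at CME (3.23%) and 2 higher at CP (21.7%). Called higher were 3 in WT CM than in WT CP (1.27%) and 4 in WT CM than in WT SC (1.19%), and 2 had a larger genotype difference at CP than at SC (19.5%). With 40 points, the counts for WT CM and for the change of the genotype difference were 0. They were also 0 on the plus strand, where the DPPA4 tile has too few CpGs to be tested, and with CpGs weighted equally, where the DPPA4 tile differed by 21.0 points from WT CP and 19.8 from WT SC. With 500 base tiles the LIN28A count was 0. Called CpGs for TKO CP minus WT CP numbered 4 on the plus strand, 5 on the minus strand and 4 at 40 points. For WT CM minus WT SC they numbered 1, 3 and 2. For TKO CP minus TKO CME they numbered 2, 1 and 0, for TKO CP minus TKO SC 4 on the minus strand and 4 at 40 points, and for WT CM minus WT CP 0 on the plus strand. A single strand holds fewer reads and fewer CpGs. The genome shares of called CpGs were not counted for a single strand or for 40 points. These counts of CpGs therefore cannot be read against the genome shares of the main test. No result changed direction while called. No paired analysis was possible because each group has 1 library. NANOG had no shared CpG, and 10 to 79 reads at those it had.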
